A study of Mus musculus with 24 samples.

Results

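Hearts of mice that carry the same NZB mitochondrial DNA (mtDNA) on different nuclear genomes were compared: NZB:NZB hearts, with an NZB nuclear genome, against BL/6J:NZB hearts, with a C57BL/6 nuclear genome. Names give the nuclear genome before the colon and the mtDNA after it. The comparison was defined by the group names alone, with 3 libraries of each group, 6 of the 24 libraries of the series, and it covers all genes of the table. NZB:NZB is the parental NZB strain, an inbred strain known for autoimmune haemolytic anaemia. BL/6J:NZB is a conplastic line, made by backcrossing for 10 generations so that a C57BL/6 nucleus sits on NZB mtDNA, and both parental strains were bought from Harlan. Both groups were males of 10 weeks of age with no treatment named, and polyadenylated RNA came from the left ventricle of 12 animals per genotype, combined into 3 pools of 4 animals. Libraries of the BL/6J groups are titled with the word mix and those of the NZB groups with rep, so a difference in handling tied to these words and the nuclear genome cannot be told apart. The series also holds livers of the same genotypes and hearts with C57 mtDNA, which are used below only to set the comparison in place.

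Most proteins of the respiratory chain are encoded in the nucleus and join a few mtDNA-encoded subunits in the inner mitochondrial membrane, so that one mtDNA can be paired with different nuclear alleles. Ventricular muscle draws most of its energy from the oxidation of fatty acids in mitochondria and contracts by sarcomeres, arrays of myosin and actin filaments regulated by the troponin complex. Fibroblasts, endothelial cells, pericytes and macrophages fill the space between muscle cells and contribute to the RNA of a whole ventricle.

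The 6 libraries held between 3714278 and 9895886 reads in genes, and values below are normalised read counts, the number of reads per gene after the authors' scaling of each library. They are not divided by gene length, so levels are compared within a gene and not between genes. The sum of all values was 643486 to 659892 in NZB:NZB hearts and 676966 to 708960 in BL/6J:NZB hearts, and the 20 most abundant genes held 11.5% to 11.9% of reads in NZB:NZB hearts and 13.6% to 14.5% in BL/6J:NZB hearts. The labelled tissue was checked on 16 cardiomyocyte markers, all of which were tested. Their summed value was 37357 to 39169 in NZB:NZB hearts and 50205 to 55069 in BL/6J:NZB hearts, and skeletal muscle markers summed to 2.86 to 3.48 in NZB:NZB hearts and 3.34 to 4.87 in BL/6J:NZB hearts. The nuclear labels were checked on genes known to differ between the strains. H2-Ea-ps, the MHC class II alpha gene of the I-E molecule that C57BL/6 mice do not express, had 7.47, 9.22 and 8.62 in NZB:NZB hearts and 0 reads in every BL/6J:NZB heart. The NZB:C57 hearts of the series, with 33.4% to 34.1% of reads in the top 20 genes, stood apart from all other hearts. They enter the comparison through the estimate of the spread and through the filter on low values, which left 13803 genes with them and 13433 without them.

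Of 13803 genes tested, 4012 (29.1%) differed between NZB:NZB and BL/6J:NZB hearts at an adjusted p under 0.05 (limma on log2(value + 1), Benjamini-Hochberg over all genes). There were 2136 genes higher in NZB:NZB hearts (15.5% of those tested) and 1876 lower (13.6%), and the median log2 fold change over all genes was 0.02. In 5643 genes (40.9%) the values of the groups did not overlap. Most differences were modest: the median absolute log2 fold change of the called genes was 0.54, and 643 of them (16%) differed at least 2-fold, 369 higher and 274 lower. At least 4-fold differences were found in 89 genes that were higher and 71 that were lower. With the NZB:C57 hearts left out of the fit 3787 genes were called, 2006 higher and 1781 lower. The split between directions depended on how the libraries were scaled. With plain library totals, which moved the median log2 fold change of all genes to 0.11, 3202 genes were higher and 1453 lower, and with a recomputed TMM scaling 1988 were higher and 2095 lower.

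**Figure D1:**
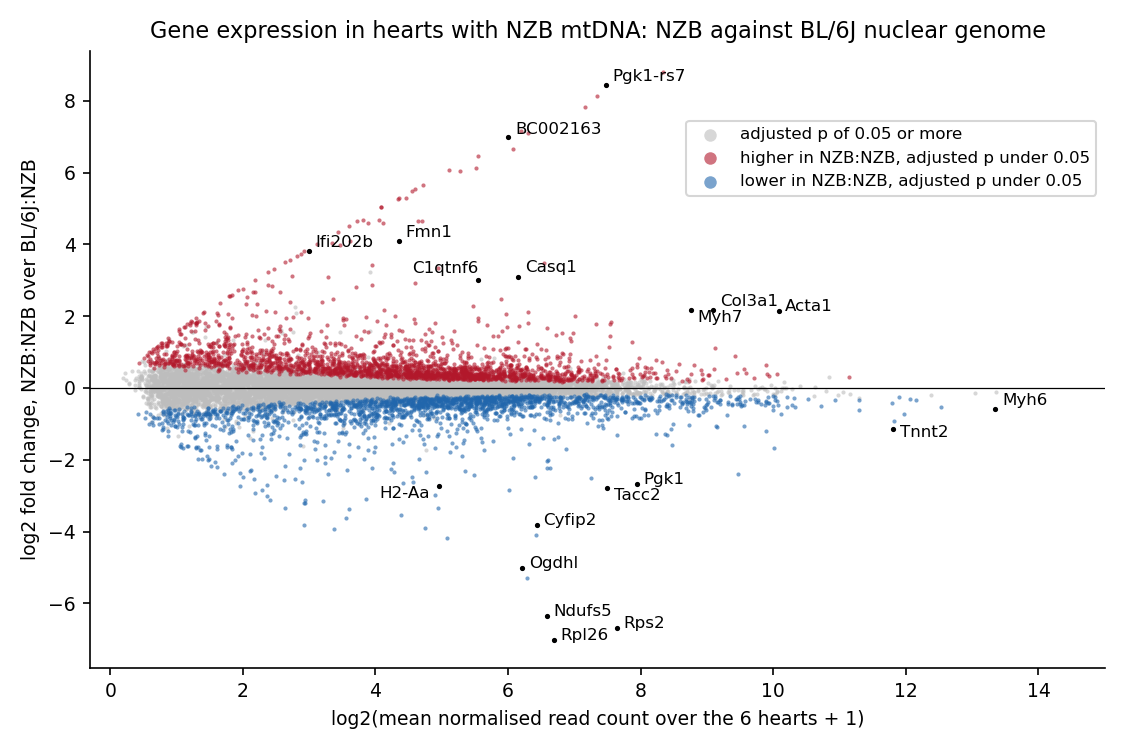
Each point is 1 of the genes tested, with its mean level over the 6 hearts on the horizontal axis and its log2 fold change, NZB:NZB over BL/6J:NZB, on the vertical axis. Genes higher in NZB:NZB hearts are red, genes lower are blue, and the 19 named genes range between Pgk1-rs7 at 8.45 and Rpl26 at -7.04 on the log2 scale.

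The most extreme fold changes among named genes belonged largely to genes that share part of their sequence with another gene. Of the 10 highest named genes, 9 shared at least 10% of their words of 31 bases with another gene, and so did 6 of the 10 lowest. Reads of shared sequence can be assigned to either gene, and reads of both strains were counted on the C57BL/6J reference. The part of this in the fold changes was not tested. These genes are described apart, after the genes with sequence of their own.

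Among genes that share little sequence, chosen here after their values were seen, a wide difference upward was found in Fmn1, which encodes formin 1, a protein that nucleates actin filaments. Fmn1 (chr2:113327736-113716767, GRCm38) had 31.8, 36.7 and 43.9 in NZB:NZB hearts, against 0.894, 1.11 and 1.72 in BL/6J:NZB hearts. The groups lie far apart, with a log2 fold change of 4.11 ± 0.16 (SE; adjusted p = 3.4e-12). Casq1, the calsequestrin of fast skeletal muscle that stores calcium in the sarcoplasmic reticulum, had 139, 118 and 122 in NZB:NZB hearts and 11.9, 13.8 and 16.2 in BL/6J:NZB hearts. Casq2, the cardiac calsequestrin, was also higher, with 893 ± 50.04 in NZB:NZB hearts and 619 ± 19.2 in BL/6J:NZB hearts (SD, n = 3 each), so both calsequestrins rose, Casq1 by a log2 fold change of 3.09 and Casq2 by 0.53. C1qtnf6, a secreted protein of the C1q and TNF related family, had 85.0, 83.0 and 78.6 in NZB:NZB hearts and 10.1, 9.53 and 8.38 in BL/6J:NZB hearts. Gcnt1, which builds branched O-glycans, had 40.0, 39.5 and 45.0 in NZB:NZB hearts and 5.66, 5.40 and 3.08 in BL/6J:NZB hearts. In each of these genes every NZB:NZB value was above every BL/6J:NZB value by several times the spread within a group.

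Downward, the widest difference among named genes that share under 10% of their words was in Ogdhl, a homologue of the 2-oxoglutarate dehydrogenase of the citric acid cycle. Ogdhl (chr14:32322019-32348151) had 3.34, 4.002 and 3.04 in NZB:NZB hearts, against 149, 144 and 136 in BL/6J:NZB hearts, a log2 fold change of -5.02 ± 0.13 (SE; adjusted p = 5.4e-15). Ogdh, the dehydrogenase subunit in general use, did not pass the test (log2 fold change -0.10). Cyfip2, a subunit of the WAVE complex that drives actin branching, had 8.34, 12.2 and 10.99 in NZB:NZB hearts and 169, 164 and 146 in BL/6J:NZB hearts (log2 fold change -3.82). Tacc2, a coiled-coil protein of centrosomes and microtubules, had 41.4, 48.2 and 45.5 in NZB:NZB hearts and 308, 317 and 315 in BL/6J:NZB hearts (log2 fold change -2.78). Each of these genes was low in all 3 NZB:NZB pools and its replicates varied little beside the gap. Pttg1, the securin that holds separase inactive until anaphase, had 3.02, 2.09 and 2.54 in NZB:NZB hearts and 52.8, 67.0 and 69.1 in BL/6J:NZB hearts. Gpc1, a cell surface heparan sulphate proteoglycan whose exons overlap an antisense neighbour over 18.9% of their length, had 41.9, 50.1 and 42.4 in NZB:NZB hearts and 278, 250 and 245 in BL/6J:NZB hearts. Prune2 (24.6 ± 4.03 in NZB:NZB hearts and 143 ± 25.7 in BL/6J:NZB hearts), Lgals4, a galectin (4.21 ± 0.56 in NZB:NZB hearts and 55.3 ± 22.6 in BL/6J:NZB hearts), and Hsd17b7, an enzyme of cholesterol and sex steroid synthesis (3.04 ± 0.74 in NZB:NZB hearts and 18.7 ± 1.21 in BL/6J:NZB hearts), were lower as well. Ptgds, a prostaglandin D synthase, had 32.6, 43.2 and 34.5 in NZB:NZB hearts and 146, 144 and 167 in BL/6J:NZB hearts. Lgals4 was the variable one of these, with 34.6, 51.8 and 79.5 in the BL/6J:NZB pools.

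**Figure D2:**
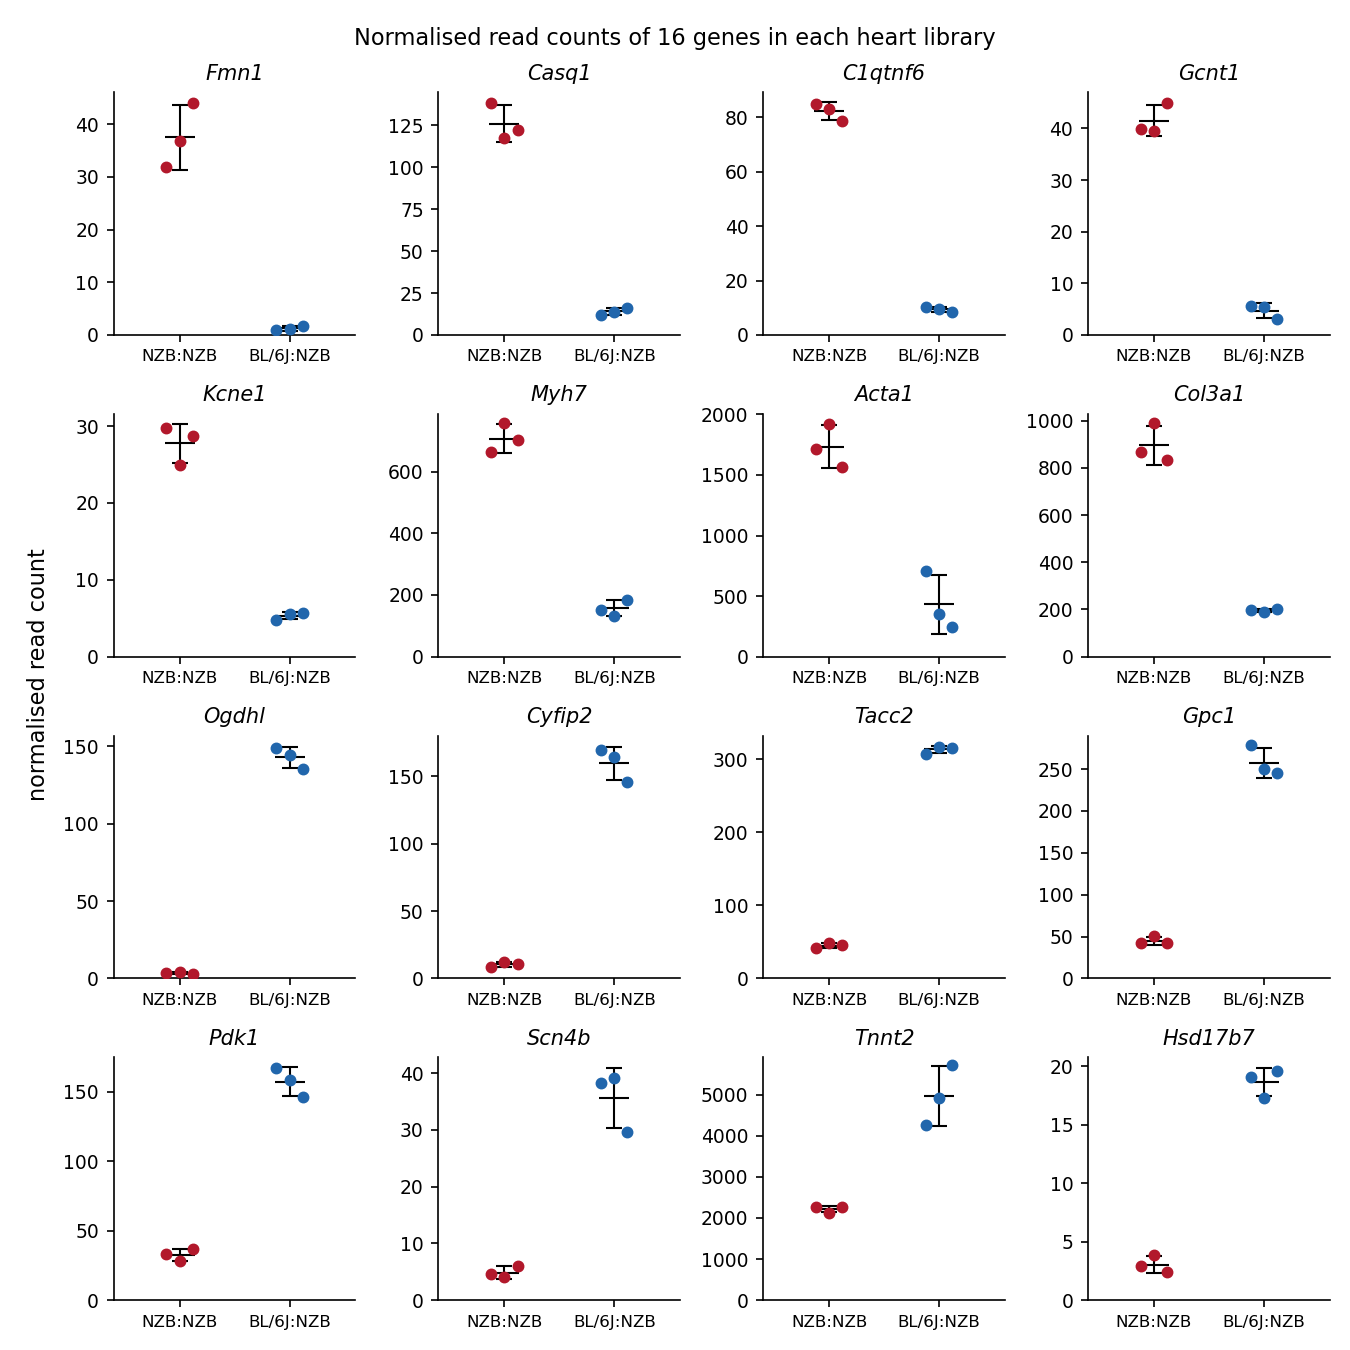
Normalised read counts (vertical axes, starting at 0) of 16 genes in the 3 NZB:NZB hearts (red, left) and the 3 BL/6J:NZB hearts (blue, right), with the mean and SD of each group in black. In every panel the groups do not overlap; Fmn1 averages 37.5 in NZB:NZB hearts and 1.24 in BL/6J:NZB hearts, and Ogdhl averages 3.46 in NZB:NZB hearts and 143 in BL/6J:NZB hearts.

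Genes of the contractile apparatus moved in both directions. The myosin heavy chain of slow muscle, Myh7, had 663, 756 and 701 in NZB:NZB hearts, against 152, 133 and 184 in BL/6J:NZB hearts (log2 fold change 2.18 ± 0.11; adjusted p = 2.0e-10). Myh6, the fast heavy chain that dominates the adult mouse ventricle, had 7707, 8913 and 8572 in NZB:NZB hearts and 12215, 12590 and 12696 in BL/6J:NZB hearts, and fell by 0.58 on the log2 scale. Both genes share words with other genes, Myh7 27.9% of them and Myh6 29.2%. Skeletal alpha actin, Acta1, had 1710, 1918 and 1569 in NZB:NZB hearts and 705, 349 and 243 in BL/6J:NZB hearts, so that the groups did not overlap although the BL/6J:NZB pools varied (log2 fold change 2.14 ± 0.24). Cardiac troponin T, Tnnt2, fell to 2271, 2122 and 2259 in NZB:NZB hearts, against 4251, 4919 and 5728 in BL/6J:NZB hearts. The regulatory light chain Myl2 was 2499 ± 278 in NZB:NZB hearts and 4713 ± 725 in BL/6J:NZB hearts, and cardiac troponin I, Tnni3, was 1957 ± 144 in NZB:NZB hearts and 3038 ± 496 in BL/6J:NZB hearts. Across the sarcomere list 4 of 24 tested members rose and 8 fell, beside 15.5% higher and 13.6% lower, 29.1% called in all, over all genes. In a fit over all 24 libraries, hearts and livers together, 2 of them rose and 0 fell. Of the 16 cardiomyocyte markers 1 rose (Ankrd1, log2 fold change 0.63) and 8 fell, myoglobin (Mb, -0.53) and phospholamban (Pln, -0.31) among them, with a list median of -0.31. In the fit over all 24 libraries 0 of these markers were called higher and 1 lower, and Tnnt2 had an adjusted p of 0.121.

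Myh7 and Acta1 are known as genes of the fetal heart that return in a loaded ventricle. Of 17 tested genes of this fetal and stress programme, 6 rose and 1 fell. The 1 that fell was the natriuretic peptide Nppb, with 118 ± 19.4 in NZB:NZB hearts and 199 ± 65.2 in BL/6J:NZB hearts (adjusted p = 0.034), while Nppa, with 383 ± 51.7 in NZB:NZB hearts and 476 ± 70.1 in BL/6J:NZB hearts, did not pass (adjusted p = 0.38). Nppb was not called lower without replicate 2 or 3 of NZB:NZB, without replicate 1 or 2 of BL/6J:NZB, with DESeq2, with library totals or with no filter on low values. The other members that rose were Postn (periostin, log2 fold change 1.09), Ankrd1, Myocd (0.56) and Nfatc1 (0.36).

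Ion channel genes also differed in both directions. Kcne1, the beta subunit of the slow delayed rectifier potassium current, had 29.7, 24.9 and 28.7 in NZB:NZB hearts and 4.77, 5.56 and 5.73 in BL/6J:NZB hearts. The T-type calcium channel genes Cacna1g and Cacna1h changed in opposite directions. Cacna1g rose to 62.03, 79.4 and 76.2 in NZB:NZB hearts, against 18.3, 19.2 and 19.1 in BL/6J:NZB hearts. Cacna1h fell to 2.30, 2.78 and 2.70 in NZB:NZB hearts, against 12.1, 15.6 and 15.3 in BL/6J:NZB hearts. Scn4b, a sodium channel beta subunit, had 4.53, 4.002 and 6.08 in NZB:NZB hearts and 38.3, 39.1 and 29.6 in BL/6J:NZB hearts. Over the whole list of 30 channel genes 6 rose and 6 fell, and 18 did not pass. In calcium handling and adrenergic signalling 6 of 31 tested genes rose and 4 fell. The alpha-1A adrenergic receptor Adra1a was at 3.17 ± 0.91 in NZB:NZB hearts and 14.9 ± 0.60 in BL/6J:NZB hearts (log2 fold change -1.96), and the sodium-calcium exchanger Slc8a1 rose by 0.52 on the log2 scale. The calcium pump Atp2a2 (-0.10) and the ryanodine receptor Ryr2 (-0.03) did not pass the test. Structural genes of the Z-disc and intercalated disc had 7 of 34 members higher, with Synpo2l at 252 ± 15.2 in NZB:NZB hearts and 113 ± 3.75 in BL/6J:NZB hearts, and 5 lower, 3 without any 1 of the BL/6J:NZB libraries. Beside these counts, 15.5% of all genes tested were higher and 13.6% lower. The medians of the channel, calcium and Z-disc lists were -0.01, 0.07 and 0.05, near the 0.02 of all genes.

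Nuclear genes of the respiratory chain were lower in NZB:NZB hearts as a group. Of 36 tested complex I subunits 33 fell and 0 rose, with a median log2 fold change of -0.44, beside 0.02 for all genes. Ndufa3, an accessory subunit, had 120, 117 and 105 in NZB:NZB hearts and 186, 210 and 247 in BL/6J:NZB hearts (log2 fold change -0.90 ± 0.09; adjusted p = 7.0e-07). In complexes II and III 10 of 13 members fell and 0 rose, including the succinate dehydrogenase flavoprotein Sdha with 1068, 1005 and 1033 in NZB:NZB hearts and 1433, 1458 and 1454 in BL/6J:NZB hearts. In complex IV and its assembly factors 15 of 24 fell and 0 rose, among them the muscle form Cox7a1 with 383, 338 and 338 in NZB:NZB hearts and 535, 572 and 668 in BL/6J:NZB hearts. In ATP synthase 15 of 16 fell and 0 rose. The shifts were small per gene and ran the same way in almost every member: the medians of complexes II and III, complex IV and ATP synthase were -0.32, -0.35 and -0.40. Among complex I genes that share under 10% of their words, 20 of 23 fell. The medians of these 4 lists stayed negative under every scaling tried, being -0.35, -0.23, -0.27 and -0.31 with library totals. Without replicate 2 of NZB:NZB, 6 members of complexes II and III were called lower.

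Cox7a2l, a factor of respiratory supercomplexes that is shortened in C57BL/6 mice, had 168 ± 20.2 in NZB:NZB hearts and 218 ± 13.9 in BL/6J:NZB hearts and fell by 0.38 on the log2 scale. Gm6969, a copy with 78.2% of its words in Cox7a2l, had 32.3 ± 7.05 in NZB:NZB hearts and 0.394 ± 0.46 in BL/6J:NZB hearts, and the sum of both was 200.4 ± 27.2 in NZB:NZB hearts and 218 ± 13.8 in BL/6J:NZB hearts, a log2 difference of -0.12. Nnt, the transhydrogenase that the C57BL/6J substrain is known to lack, was present in both groups, with 773, 776 and 814 in NZB:NZB hearts and 846, 889 and 918 in BL/6J:NZB hearts. It did not pass the test (adjusted p = 0.090), and it shares 47.8% of its words with another gene identifier of the same symbol.

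Fatty acid oxidation followed the same direction. Of 43 tested genes of this pathway and of the PPAR regulators that control it, 33 fell and 2 rose, with a median of -0.40. Decr1, an auxiliary enzyme for unsaturated fatty acids, had 270, 212 and 231 in NZB:NZB hearts and 457, 461 and 506 in BL/6J:NZB hearts. The carnitine carrier Slc25a20 had 87.4 ± 10.1 in NZB:NZB hearts and 160 ± 6.32 in BL/6J:NZB hearts, and the thioesterase Acot2 had 28.9 ± 2.38 in NZB:NZB hearts and 57.6 ± 4.81 in BL/6J:NZB hearts. The decline ran along the route, through uptake (Lpl -0.73, Cd36 -0.52), import (Cpt1b -0.36, Cpt2 -0.47) and the oxidation steps (Acadvl -0.45, Hadha -0.51), all log2 fold changes. The 2 that rose were the uncoupling protein Ucp2 (0.52) and the nuclear receptor Ppard (0.45), while Ucp3 fell to 13.3, 10.4 and 12 in NZB:NZB hearts, against 22.5, 43.2 and 52.7 in BL/6J:NZB hearts. Ppara (0.21) and Ppargc1a (-0.09) did not pass the test.

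Of the pyruvate dehydrogenase kinases, which restrain the entry of glucose carbon into mitochondria, Pdk1, Pdk2 and Pdk4 fell, and Pdk3 was at 1.69 ± 0.26 in NZB:NZB hearts and 1.68 ± 0.29 in BL/6J:NZB hearts. Pdk1 had 33.0, 28.2 and 36.5 in NZB:NZB hearts, against 167, 158 and 146 in BL/6J:NZB hearts, and Pdk4 had 246, 137 and 192 in NZB:NZB hearts, against 364, 514 and 514 in BL/6J:NZB hearts, while Pdk2 fell by 0.31 on the log2 scale. In glycolysis and glucose uptake 3 of 28 genes rose and 12 fell, and of the 17 that share under 10% of their words 2 rose and 5 fell. The platelet form of phosphofructokinase, Pfkp, rose to 152, 166 and 143 in NZB:NZB hearts, against 59.6, 54.3 and 51.1 in BL/6J:NZB hearts, and the muscle form, Pfkm, fell by 0.31 on the log2 scale. The brain form of glycogen phosphorylase, Pygb, fell to 184, 177 and 170 in NZB:NZB hearts, against 526, 522 and 548 in BL/6J:NZB hearts. Citric acid cycle genes had 8 of 20 members lower and 0 higher, led after Ogdhl by Idh2 (836 ± 27.8 in NZB:NZB hearts and 1385 ± 107 in BL/6J:NZB hearts). In ketone body and branched-chain amino acid use 3 of 18 genes rose and 10 fell. The ketone dehydrogenase Bdh1, which overlaps an antisense gene over 13.7% of its exons, had 175, 178 and 174 in NZB:NZB hearts and 86.3, 62.9 and 52.2 in BL/6J:NZB hearts, and Mccc1, of leucine breakdown, had 50.6 ± 2.49 in NZB:NZB hearts and 115 ± 3.89 in BL/6J:NZB hearts.

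Genes for mitochondrial upkeep were lower in smaller shares. Mitochondrial ribosomal proteins had 30 of 73 members lower and 1 higher (median -0.23), mitochondrial proteases, chaperones and dynamics had 13 of 26 lower and 1 higher, and mtDNA maintenance and expression had 10 of 39 lower and 0 higher. The count for proteases, chaperones and dynamics was 7 without replicate 3 of NZB:NZB, 8 without replicate 2 or 3 of BL/6J:NZB and 5 with library totals. That for mtDNA maintenance was 5 without replicate 2 of either group, and 6 without replicate 3 of BL/6J:NZB, with library totals or in the fit over all 24 libraries. Named examples are Mrpl55 (24.3 ± 3.004 in NZB:NZB hearts and 50.6 ± 4.74 in BL/6J:NZB hearts) and Pink1, the kinase that marks damaged mitochondria (346 ± 3.77 in NZB:NZB hearts and 536 ± 35.04 in BL/6J:NZB hearts). In the antioxidant and glutathione list 22 of 57 genes fell and 6 rose, Gstk1, a glutathione transferase, being at 35.6 ± 4.81 in NZB:NZB hearts and 65.0 ± 5.89 in BL/6J:NZB hearts. Cytosolic ribosomal proteins had 34 of 77 members lower and 1 higher, but only 9 of the 77 share under 10% of their words, and 5 of those 9 were lower. The count of lower members was 20 without replicate 3 of either group, 21 with library totals and 22 when genes that share sequence were summed. Proteasome genes had 15 of 38 lower and 0 higher, with 9 lower without replicate 3 of BL/6J:NZB and 8 without replicate 3 of NZB:NZB.

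**Figure D3:**
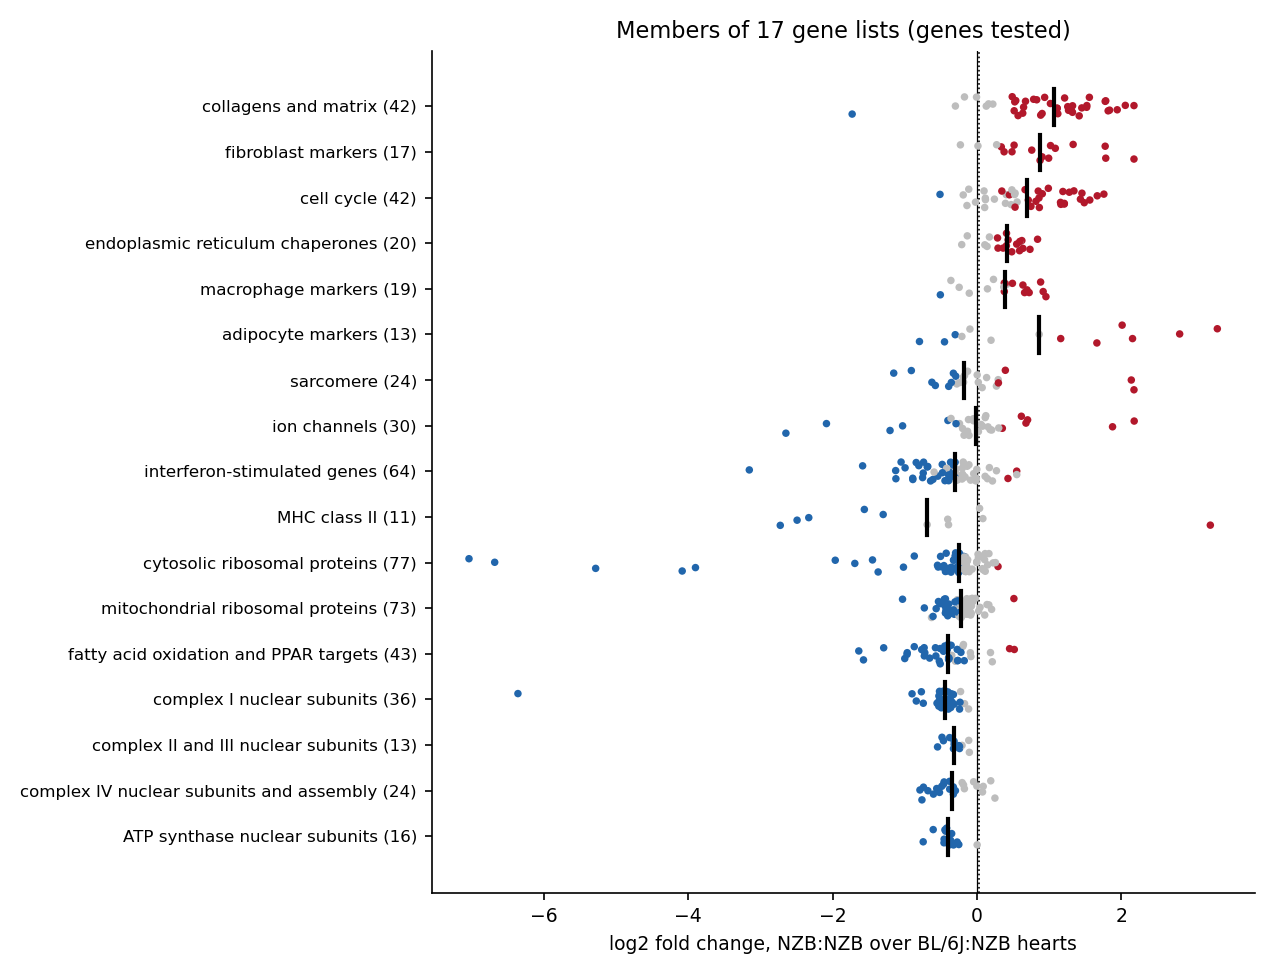
Log2 fold changes, NZB:NZB over BL/6J:NZB hearts (horizontal axis), of the tested members of 17 gene lists (rows, with the number of members), red for called higher, blue for called lower and grey for not called. Black bars are list medians, between 1.06 for collagens and matrix and -0.69 for MHC class II, and the dotted line is the median of all genes, 0.02.

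Most of the tested extracellular matrix genes were higher in NZB:NZB hearts. Of 42 genes for collagens, matrix and its regulators 35 rose, 1 fell and 6 did not pass, with a median log2 fold change of 1.06. The fibrillar collagen Col3a1 had 867, 989 and 832 in NZB:NZB hearts and 200, 189 and 202 in BL/6J:NZB hearts (log2 fold change 2.18 ± 0.08; adjusted p = 6.5e-13). Col1a1 had 212, 302 and 228 in NZB:NZB hearts, against 77.0, 65.6 and 68.3 in BL/6J:NZB hearts, and Col1a2 had 255.6, 342 and 267 in NZB:NZB hearts, against 91.5, 77.5 and 79.7 in BL/6J:NZB hearts. In all 3 collagens the highest NZB:NZB pool was replicate 2. Elastin, Eln, had 74.4, 129 and 96.8 in NZB:NZB hearts and 24.3, 22.1 and 21.8 in BL/6J:NZB hearts, and fibrillin 1, Fbn1, which overlaps an antisense gene over 20.1% of its exons, had 166 ± 15.4 in NZB:NZB hearts and 57.2 ± 2.55 in BL/6J:NZB hearts. Chains of basement membrane collagen (Col4a1, log2 fold change 0.88), microfibrillar collagen (Col6a1, 1.31), fibronectin (Fn1, 1.22), the crosslinking enzyme Loxl2 (1.94) and Sparc (1.12) rose as well. The single member that fell was the protease Mmp3, with 0.189 ± 0.20 in NZB:NZB hearts and 2.94 ± 0.70 in BL/6J:NZB hearts, while the protease Mmp2 rose (1.11). Tgfb2 (0.49), Tgfb3 (0.52) and the receptor Tgfbr2 (0.54) rose, and Tgfb1 (-0.01) did not pass.

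Markers of fibroblasts moved with the matrix: 14 of 17 rose and 0 fell, and their summed value was 3494 to 3984 in NZB:NZB hearts and 1989 to 2069 in BL/6J:NZB hearts, with none at 0. Several of these markers are themselves matrix genes. In RNA of whole ventricle, fewer cells of a type and less RNA per cell cannot be told apart, and the part of cell numbers in the results was not tested. Macrophage markers had 11 of 19 higher and 1 lower, summing to 474 to 543 in NZB:NZB hearts and 335 to 424 in BL/6J:NZB hearts. The mannose receptor Mrc1 had 39.2, 30.8 and 37.4 in NZB:NZB hearts, against 18.9, 17.8 and 19.9 in BL/6J:NZB hearts, and Cd163 had 16.8, 17.8 and 17.6 in NZB:NZB hearts, against 10.9, 6.35 and 8.74 in BL/6J:NZB hearts. Endothelial markers stayed close together, with 6 of 22 higher and 1 lower, 2 higher and 0 lower in the fit over all 24 libraries, and sums of 2235 to 2428 in NZB:NZB hearts and 2161 to 2432 in BL/6J:NZB hearts. Smooth muscle and pericyte markers had 5 of 15 higher and 3 lower, with a median log2 fold change of 0.12. They summed to 2049.4 to 2240.4 in NZB:NZB hearts and 2299.5 to 2305.9 in BL/6J:NZB hearts. Among the 3 lower ones, the pericyte potassium channel subunit Abcc9 had 111 ± 9.44 in NZB:NZB hearts and 228 ± 11.95 in BL/6J:NZB hearts. Beside the counts of these marker lists, 15.5% of all genes tested were higher and 13.6% lower. Epicardial markers summed to 267 to 354 in NZB:NZB hearts and 531 to 569 in BL/6J:NZB hearts, with 1 of 11 higher and 1 lower, and the sum was carried by Clu, a secreted chaperone with 218 ± 25.4 in NZB:NZB hearts and 483 ± 24.8 in BL/6J:NZB hearts.

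Traces of other tissues differed between the groups for some markers and between single pools for others. Adipocyte markers had 6 of 13 higher and 3 lower, beside 15.5% higher and 13.6% lower over all genes, with a median log2 fold change of 0.86. They summed to 651 to 744 in NZB:NZB hearts and 694 to 888 in BL/6J:NZB hearts. Over the list the groups did not overlap in 7 members that were higher and in 3 that were lower. Among the 6 called higher, Car3, Cfd and Adipoq had every NZB:NZB pool above every BL/6J:NZB pool. Among the 6, replicate 2 of NZB:NZB was the highest pool for Car3 (34.0, 79.7 and 51.4 in NZB:NZB hearts and 2.38, 4.45 and 6.88 in BL/6J:NZB hearts), for adipsin, Cfd (14.8, 34.1 and 16.7 in NZB:NZB hearts and 2.24, 2.54 and 1.504 in BL/6J:NZB hearts), and for adiponectin, Adipoq (4.29, 12.5 and 5.58 in NZB:NZB hearts and 0.894, 0.635 and 0.716 in BL/6J:NZB hearts). The lipid synthesis genes Scd1 (84.3, 148 and 70.0 in NZB:NZB hearts and 12.2, 16.4 and 21.6 in BL/6J:NZB hearts) and Fasn (52.3, 137 and 50.5 in NZB:NZB hearts and 21.5, 18.3 and 22.4 in BL/6J:NZB hearts) had the same high pool. Their list had 7 of 25 members higher and 4 lower, the triglyceride synthase Dgat2 falling to 115 ± 10.5 in NZB:NZB hearts, against 284 ± 9.24 in BL/6J:NZB hearts. The airway secretoglobin Scgb1a1 had 1.91, 86.0 and 62.4 in NZB:NZB hearts and 0 reads in BL/6J:NZB hearts, and Scgb3a2, of the same family, had 0.318, 12.4 and 6.25 in NZB:NZB hearts and 0 reads in BL/6J:NZB hearts. Against a floor of 3 reads over the group Scgb1a1 was at least 450-fold higher, but replicate 1 of NZB:NZB held little of either gene. Hepatocyte markers summed to 137 to 194 in NZB:NZB hearts and 53.8 to 345 in BL/6J:NZB hearts, with albumin, Alb, at 59.9, 52.0 and 54.8 in NZB:NZB hearts and 13.1, 16.04 and 130.5 in BL/6J:NZB hearts, and 2 of 25 tested markers were called higher. Without replicate 3 of BL/6J:NZB 13 were called higher, and 0 without replicate 2 or 3 of NZB:NZB, without replicate 1 or 2 of BL/6J:NZB, or with edgeR or DESeq2. B and plasma cell markers had 2 of 8 higher and summed to 22 to 68.6 in NZB:NZB hearts and 19.1 to 20.4 in BL/6J:NZB hearts, the high NZB:NZB pool again being replicate 2 with Ighm at 38.8. Among erythroid markers, where 1 of 8 rose and 2 fell, Hbb-bt was at 157, 188 and 203 in NZB:NZB hearts and 287, 463 and 713 in BL/6J:NZB hearts, and without replicate 3 of BL/6J:NZB it was not called (adjusted p = 0.065). The part of these traces in the results was not tested. Neural markers had 1 of 9 higher, atrial markers 1 of 12 lower, and neutrophil and mast cell markers 2 of 8 lower. T and NK cell markers had 1 of 4 higher, Thy1, which is also on the fibroblast list. Platelet markers, a list that holds the strain variant gene Mmrn1, had 2 of 6 higher and 2 lower. Of 3 skeletal muscle markers 0 were called. Beside the counts of these smaller lists, 15.5% of all genes tested were higher and 13.6% lower.

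Cell cycle genes were higher in NZB:NZB hearts, with 25 of 42 tested members higher and 1 lower and a median log2 fold change of 0.69. Topoisomerase Top2a had 14.1, 14.6 and 12.7 in NZB:NZB hearts and 3.73, 3.65 and 2.79 in BL/6J:NZB hearts, and the proliferation antigen Mki67 had 20.8, 22.3 and 20.1 in NZB:NZB hearts and 6.56, 7.15 and 5.73 in BL/6J:NZB hearts. Cyclins A2 and B1 (Ccna2 1.67, Ccnb1 1.34) and the kinase Cdk1 (1.43) rose in log2 fold change, the kinetochore protein Cenpf (-0.51) fell, and D cyclins such as Ccnd1 (-0.02) did not pass. Requiring a value of 5 in 3 libraries left 15 members higher and 1 lower. Chaperones of the endoplasmic reticulum, which fold secreted proteins, had 14 of 20 members higher and 0 lower, Hyou1 being at 98.2, 118 and 88.2 in NZB:NZB hearts and 70.6, 50.2 and 49.1 in BL/6J:NZB hearts, and Pdia3 at 319, 296 and 271 in NZB:NZB hearts and 222, 201 and 167 in BL/6J:NZB hearts. In the fit over all 24 libraries 7 of these chaperones were higher. Over all genes tested 15.5% were higher and 13.6% lower. Cytosolic heat shock proteins had 1 of 27 higher and 4 lower, so the list did not stand out from all genes in the lower direction. Hspa8, which shares 44.8% of its words, was at 488 ± 55.4 in NZB:NZB hearts and 1568 ± 229 in BL/6J:NZB hearts. The higher count of heat shock proteins was 6 without replicate 1 of BL/6J:NZB. The lower one was 2 without replicate 2 or 3 of NZB:NZB or replicate 2 of BL/6J:NZB.

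In the insulin, IGF and thyroid list 7 of 31 members were higher, both insulin-like growth factors among them, and 2 lower. The shares called over all genes were 15.5% higher and 13.6% lower. The list median was 0.06, beside 0.02 for all genes. Igf1 had 30.9, 28.5 and 32.6 in NZB:NZB hearts and 12.8, 12.9 and 18.5 in BL/6J:NZB hearts, and Igf2, which overlaps another gene over 62.8% of its exons, had 91.0, 107 and 89.4 in NZB:NZB hearts and 25.6, 29.7 and 30.95 in BL/6J:NZB hearts. The binding proteins Igfbp3 (0.87), Igfbp4 (0.69), Igfbp5 (0.56) and Igfbp7 (0.79) rose in log2 fold change, while the receptors Igf1r (-0.12) and Igf2r (0.06) did not pass and Insr (-0.20) fell.

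Clock genes moved in both directions. Arntl, the activator of the clock, had 14.5, 12.5 and 12.8 in NZB:NZB hearts and 34.7, 31.8 and 27.8 in BL/6J:NZB hearts, and fell by 1.18 on the log2 scale. Per3 and Dbp, which the activator is known to drive, rose, Per3 with 20.5, 26.1 and 26.7 in NZB:NZB hearts and 8.20, 7.46 and 10.1 in BL/6J:NZB hearts, and Dbp with 35.7, 37.8 and 32.3 in NZB:NZB hearts and 5.37, 5.08 and 21.9 in BL/6J:NZB hearts. Replicate 3 of BL/6J:NZB was the pool closest to NZB:NZB in Dbp and in Nr1d1. Over the list of 22 clock genes 10 rose and 5 fell, and in the fit over all 24 libraries 6 rose and 2 fell. The hour of death is not given in the labels, and its part was not tested. The hypoxia list had 4 of 24 higher and 6 lower, with Angpt1, an endothelial growth factor, at 15.9 ± 1.38 in NZB:NZB hearts and 42.7 ± 11.2 in BL/6J:NZB hearts. Iron and haem genes had 4 of 28 higher and 11 lower, and autophagy and lysosome genes 7 of 44 higher and 7 lower. Muscle ubiquitin ligases had 2 of 16 higher and 4 lower, splicing regulators of heart muscle 3 of 17 higher and 1 lower, immediate early genes 1 of 24 higher and 2 lower, and the ATF4 stress response 4 of 25 higher and 2 lower. Complement and coagulation genes had 8 of 33 higher and 4 lower, cytokine and pattern recognition genes 3 of 36 higher and 6 lower, and genes of the sex chromosomes 1 of 8 higher and 0 lower. Among all genes tested 15.5% were called higher and 13.6% lower. Several of these list counts moved by over 1.5 times with 1 library left out. Clock genes called lower were 2 without replicate 2 of either group and 3 without replicate 3 of NZB:NZB or replicate 1 of BL/6J:NZB. Hypoxia genes called higher were 2 without replicate 1 or 3 of NZB:NZB or replicate 1 or 2 of BL/6J:NZB, complement genes called higher were 5 without replicate 2 of BL/6J:NZB, and autophagy genes called higher were 4 without replicate 3 of BL/6J:NZB. Ubiquitin ligases called lower were 2 without replicate 2 or 3 of BL/6J:NZB.

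Genes of antigen presentation were called lower more often than higher in NZB:NZB hearts. Of 11 tested MHC class II genes 5 fell and 1 rose, and the list summed to 85.9 to 95.5 in NZB:NZB hearts and 272 to 286 in BL/6J:NZB hearts. H2-Aa, the alpha chain of I-A, had 8.74, 6.44 and 6.42 in NZB:NZB hearts, against 55.1, 50.2 and 53.1 in BL/6J:NZB hearts (log2 fold change -2.73 ± 0.14; adjusted p = 1.6e-10). H2-Ab1, its beta chain, had 7.23, 5.57 and 5.58 in NZB:NZB hearts, against 36.8, 38.4 and 41.4 in BL/6J:NZB hearts, and the beta chain H2-Eb1 had 7.47, 8.70 and 7.77 in NZB:NZB hearts, against 42.6, 42.4 and 47.4 in BL/6J:NZB hearts. The invariant chain Cd74, which accompanies class II molecules and lies outside the MHC, fell to 41.4, 39.5 and 37.2 in NZB:NZB hearts, against 118, 116 and 120 in BL/6J:NZB hearts. The transactivator Ciita (-0.40) did not pass the test. The promoters of H2-Aa and H2-Eb1 are shown to locate the Y box, an element of class II promoters that the factor NF-Y is known to bind. The 160 bases that end just before each start site are from RefSeq (GRCm38.p6), with the Y box, CTGATTGG, in capitals.
H2-Aa, chr17:34287824-34287983, minus strand: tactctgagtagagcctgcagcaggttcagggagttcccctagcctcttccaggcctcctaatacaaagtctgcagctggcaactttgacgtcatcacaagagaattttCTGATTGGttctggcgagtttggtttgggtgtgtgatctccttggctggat
H2-Eb1, chr17:34305707-34305866, plus strand: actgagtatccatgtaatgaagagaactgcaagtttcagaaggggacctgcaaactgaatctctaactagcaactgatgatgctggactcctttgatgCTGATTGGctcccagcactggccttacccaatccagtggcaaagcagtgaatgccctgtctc
The Y box starts 51 bases before the start site in H2-Aa and 62 bases before it in H2-Eb1. These 8 letters occur on either strand in 4.1% of 32851 promoter windows of 300 bases (1346 windows), and the sequence is that of the reference strain, not of NZB. Promoters of other class II genes are not shown, and the part of the Y box in the fold changes was not tested. Reads of NZB class II alleles were also counted on the C57BL/6J reference, and the part of that was not tested.

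In MHC class I and antigen processing 14 of 27 tested genes fell and 5 rose. The classical class I gene H2-K1 had 37.0, 35.8 and 28.6 in NZB:NZB hearts, against 154, 150 and 184 in BL/6J:NZB hearts, and beta-2-microglobulin, B2m, on another chromosome, had 202, 175 and 164 in NZB:NZB hearts, against 314, 298 and 356 in BL/6J:NZB hearts. H2-T22 and H2-T23 fell by 3.09 and 2.35 on the log2 scale, the transporter Tap1 by 0.74 and the class I transactivator Nlrc5 by 1.36, while H2-Q2 and H2-T10 rose. Class I genes are alike in sequence and differ in number between haplotypes, and among the 12 members that share under 10% of their words 5 fell and 3 rose. Interferon-stimulated genes, which respond to interferon in most cell types, had 30 of 64 members lower and 2 higher, with a median of -0.30. The transcription factor Irf7 had 12.7, 11.3 and 11.3 in NZB:NZB hearts and 22.5, 20.8 and 22.4 in BL/6J:NZB hearts, and the guanylate binding protein Gbp3 had 12.1 ± 0.28 in NZB:NZB hearts and 23.3 ± 1.65 in BL/6J:NZB hearts.

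The Ifi200 cluster on chromosome 1 is known to differ between strains. In a list of this cluster with Fc receptors and SLAM genes, 8 of 21 tested genes fell and 1 rose. Over all genes 13.6% were lower and 15.5% higher. Among the 10 list members that share under 10% of their words 2 fell and 1 rose. Requiring a value of 5 in 3 libraries left 4 of 13 members lower. Ifi202b, a DNA-binding gene that NZB mice express and C57BL/6 mice scarcely do, had 16.1, 12.5 and 13.01 in NZB:NZB hearts and 0, 0 and 0.143 in BL/6J:NZB hearts. That is 352 reads in NZB:NZB hearts and 2 reads in BL/6J:NZB hearts, a ratio of 196 with a 95% counting interval of 53.8 to 1622. Its neighbour Mndal had 1.19, 0.348 and 0.845 in NZB:NZB hearts and 21.2, 20.8 and 20.3 in BL/6J:NZB hearts, and Ifi205 had 0.132 ± 0.23 in NZB:NZB hearts and 8.13 ± 1.17 in BL/6J:NZB hearts. Mmrn1 (multimerin 1), which the C57BL/6 substrain of Harlan is known to lack, had 5.08, 4.70 and 4.90 in NZB:NZB hearts and 0 reads in all BL/6J:NZB hearts, at least 44.0-fold higher against the floor of 3 reads over the group. Gm13340, a nuclear gene that shares 50.4% of its words, above all with mt-Co1, had 39.2, 36.5 and 33.3 in NZB:NZB hearts and 101, 110 and 65.9 in BL/6J:NZB hearts. Fcgr2b, an inhibitory Fc receptor whose promoter is known to differ in NZB, had 5.47 ± 1.25 in NZB:NZB hearts and 8.01 ± 1.38 in BL/6J:NZB hearts and did not pass (adjusted p = 0.12). Hc, complement C5, was too low in heart to be tested, at 0.159, 1.04 and 0.845 in NZB:NZB hearts and 0.596, 0.318 and 1.79 in BL/6J:NZB hearts.

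Called genes were spread over the genome. The share of tested genes that were called was between 20.2% on the X chromosome and 35.2% on chromosome 3, with 0 of 6 on the Y chromosome, and in 267 bins of 5 Mb with at least 20 tested genes it was between 4.35% and 55.2% with a median of 29.4%. There were 11 stretches of at least 6 neighbouring tested genes that were all called. Both MHC class I blocks were among them, chr17:35262730-35443773 with H2-D1 and the H2-Q genes (2 higher and 6 lower) and chr17:36029773-36145923 with the H2-T genes (6 higher and 2 lower). A block of zinc finger genes at chr4:146610961-147809788 had 2 higher and 6 lower, with Zfp979 at 13.6, 12.7 and 13.1 in BL/6J:NZB hearts and 0 reads in NZB:NZB hearts, at least 106-fold lower. At chr4:136469761-137048801 all 7 genes were higher, among them C1qa, C1qb and C1qc, which encode complement C1q and are made by macrophages (Luzp1, log2 fold change 0.49; C1qc, 0.49; C1qa, 0.39). At chr17:24718116-24882010 all 7 were lower, among them Msrb1, a selenoprotein that repairs oxidised methionine, with 26.4, 25.6 and 21.6 in NZB:NZB hearts and 72.0, 65.6 and 75.2 in BL/6J:NZB hearts, and Hagh, a glyoxalase, with 22.5 ± 2.60 in NZB:NZB hearts and 50.8 ± 2.54 in BL/6J:NZB hearts. At chr9:43221235-44113517 all 6 were higher, including Thy1 (15.2 ± 1.23 in NZB:NZB hearts and 6.97 ± 0.61 in BL/6J:NZB hearts). The other stretches held genes of both directions.

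Genes that share sequence with another gene made up much of the extremes of the comparison. A retrocopy is a gene copy made from a spliced mRNA and inserted elsewhere in the genome, and many are annotated as processed pseudogenes. There were 274 called genes with a tested partner that holds at least 30% of their words. In 128 of these 274 pairs the partner moved the other way, and in 73 of those both were called. Of the 73 genes, 50 were the higher member of their pair and are here called copies, with 34 annotated as pseudogenes. The term is loose, since some of the 50 are neighbours that overlap their partner in position, such as Ilk with Taf10 and Ramp2 with Vps25. In 19 of the 50 the BL/6J:NZB hearts held 0 reads. The pairs below show how little sequence can tell a gene and its processed pseudogene apart, in coding stretches of 120 bases of the GRCm38 reference, with differing bases in capitals.
Ndufs5, chr4:123715960-123716079, minus strand: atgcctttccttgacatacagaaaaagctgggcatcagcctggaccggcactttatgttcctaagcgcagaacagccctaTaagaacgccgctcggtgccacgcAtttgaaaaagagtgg
BC002163, chr16:42955631-42955750, plus strand: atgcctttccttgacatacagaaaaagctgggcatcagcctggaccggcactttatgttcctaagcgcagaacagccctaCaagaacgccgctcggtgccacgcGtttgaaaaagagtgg
Rpl26, chr11:68903179-68903298, plus strand: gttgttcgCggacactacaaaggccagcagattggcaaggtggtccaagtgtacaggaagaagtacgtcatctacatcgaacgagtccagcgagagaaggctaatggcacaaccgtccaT
Gm15772, chr5:3236599-3236718, plus strand: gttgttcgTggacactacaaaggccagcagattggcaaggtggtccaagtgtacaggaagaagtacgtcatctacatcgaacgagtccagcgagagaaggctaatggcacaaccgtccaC
Over the whole coding sequence, BC002163 differs from Ndufs5 at 2 of 318 bases (99.4% identity) and Gm15772 from Rpl26 at 2 of 435 (99.5%).

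In these pairs the copy had the reads in NZB:NZB hearts and the parent gene in BL/6J:NZB hearts. The parent Ndufs5, a complex I subunit, had 0.794, 1.39 and 1.86 in NZB:NZB hearts and 174, 180 and 213 in BL/6J:NZB hearts, while BC002163 had 130, 122 and 126 in NZB:NZB hearts and 0 reads in BL/6J:NZB hearts. Their sum was 128 ± 3.64 in NZB:NZB hearts and 189 ± 21.1 in BL/6J:NZB hearts, a log2 difference of -0.56, beside the complex I median of -0.44. The parent Rpl26, a ribosomal protein, had 0.556, 1.04 and 0.169 in NZB:NZB hearts and 176, 206 and 229 in BL/6J:NZB hearts, while Gm15772 had 177, 148 and 143 in NZB:NZB hearts and 0.298, 0 and 0.143 in BL/6J:NZB hearts, with sums of 156 ± 18.1 in NZB:NZB hearts and 204 ± 26.7 in BL/6J:NZB hearts. Pgk1, a glycolytic enzyme, had 44.8, 91.9 and 67.1 in NZB:NZB hearts and 432, 412 and 421 in BL/6J:NZB hearts, and Pgk1-rs7, which matches it over 1250 aligned bases with 0 differences, had 428, 305 and 327 in NZB:NZB hearts and 0 reads in BL/6J:NZB hearts. The sums, 421 ± 44.5 in NZB:NZB hearts and 422 ± 10.4 in BL/6J:NZB hearts, differed by less than the spread between pools. Rps2 and Rps2-ps13, Atp6v0c and Atp6v0c-ps2, and Ncoa4 and Gm6768 had the same form, the last with sums of 80.2 ± 5.03 in NZB:NZB hearts and 74.0 ± 4.95 in BL/6J:NZB hearts. Other named genes at the ends share words as well. Hamp2, a hepcidin gene that shares 34.5% of its words, had 24.2, 22.3 and 20.3 in NZB:NZB hearts and 0.298, 0 and 0.860 in BL/6J:NZB hearts. Over the 50 pairs, overlapping neighbours among them, the median absolute log2 fold change was 2.63 for the higher members and 0.87 for partners. The median absolute log2 difference of the sums was 0.33. Because pairs were taken for moving in opposite directions, the smaller sums follow in part from the choice and are given as a description. Genes that share sequence were not called more often in general: 29.9% of 3295 genes sharing at least 10% of their words were called, and 28.8% of the others. With genes that share sequence left out, 3129 genes were called, 1782 higher and 1347 lower. For Tpm3-rs7 the difference was not called once copies were summed (adjusted p = 0.17).

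**Figure D4:**
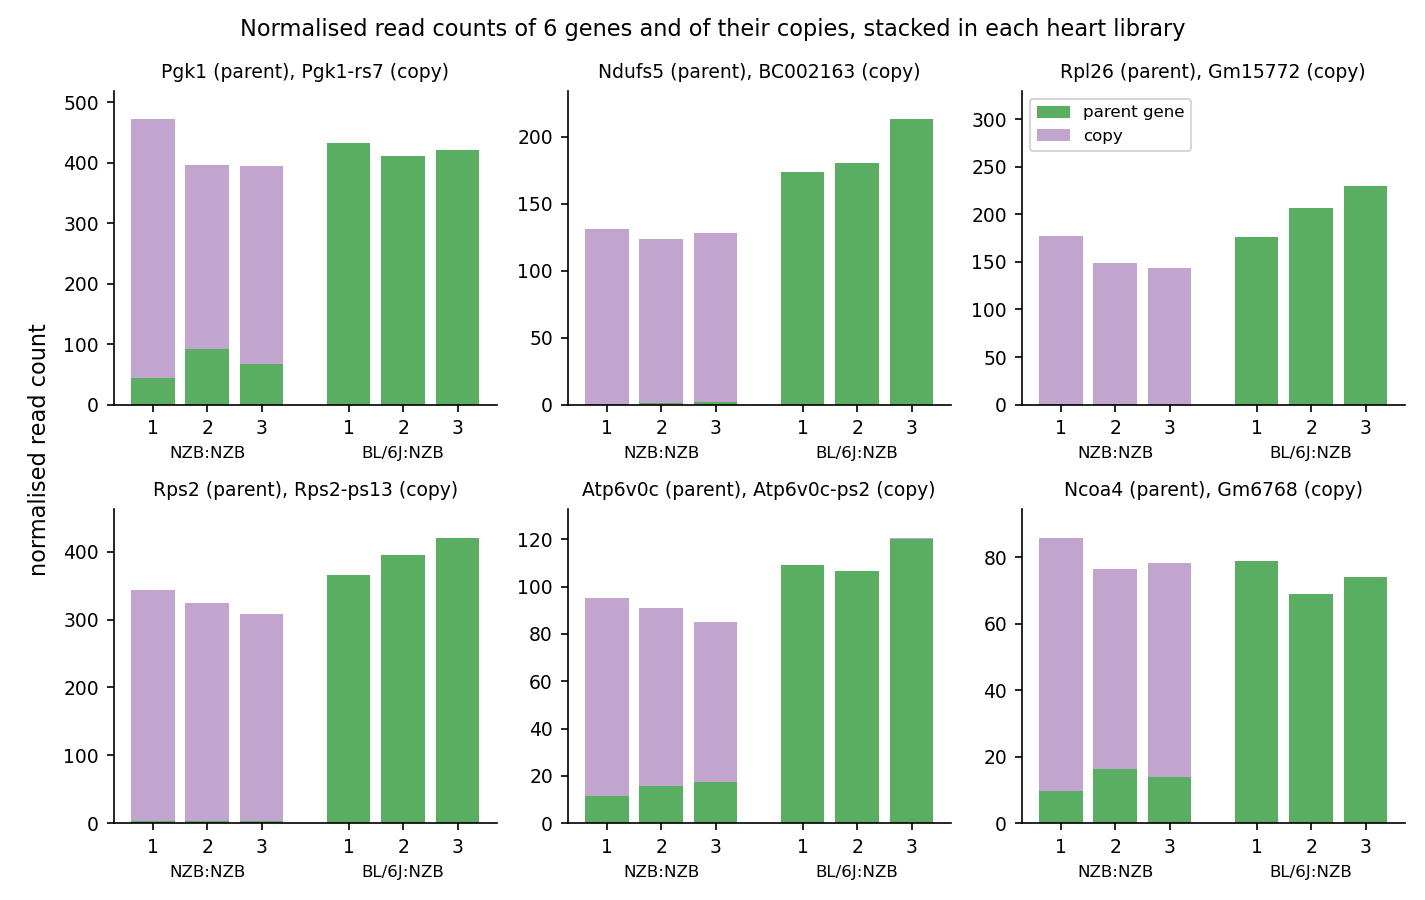
Normalised read counts (vertical axes) of 6 parent genes (green) and their copies (purple), stacked for each of the 3 NZB:NZB hearts (left) and the 3 BL/6J:NZB hearts (right). The copy holds most of the bar in NZB:NZB hearts and almost none in BL/6J:NZB hearts; for Pgk1 and Pgk1-rs7 the stacked bars average 421 in NZB:NZB hearts and 422 in BL/6J:NZB hearts.

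The same nuclear contrast was available in liver, in other libraries of the same genotypes, whose pools may hold the same animals. In liver 3271 of 13159 tested genes were called (24.9%). Of 12063 genes tested in both tissues, 1358 were called in both, which is 38.9% of the 3487 heart calls and 48.3% of the 2813 liver calls among them. Of the 1358, 1172 (86.3%) had the same direction, 650 higher and 522 lower, and 186 had opposite directions. The difference between the tissues' contrasts was tested directly in a fit over all 24 libraries, and 2323 of 14968 genes (15.5%) passed, 1096 with a higher and 1227 with a lower contrast in heart. Tacc2 had 45.0 ± 3.43 in NZB:NZB hearts and 314 ± 5.20 in BL/6J:NZB hearts, and its liver means were 3.94 in NZB:NZB and 27.9 in BL/6J:NZB, with no detectable difference between tissues (adjusted p = 0.54). Fmn1 differed, with liver means of 6.29 in NZB:NZB and 9.47 in BL/6J:NZB (difference 4.63 on the log2 scale, adjusted p = 9.1e-10), and so did Cyfip2, with liver means of 2.78 in NZB:NZB and 1.94 in BL/6J:NZB (difference -4.19). Gpc1 was lower in NZB:NZB hearts and higher in NZB:NZB livers (19.2 ± 0.62 in NZB:NZB livers and 6.49 ± 1.03 in BL/6J:NZB livers). Lipoprotein lipase, Lpl, likewise had a log2 fold change of -0.73 in heart and 2.39 in liver.

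By list, matrix genes rose in both tissues, with 19 of 37 tested members higher and 1 lower in liver, and for 13 members the heart contrast was the higher one and for 2 the lower one. Cell cycle genes had 32 of 42 higher and 1 lower in liver, with the heart contrast lower for 14. Complex I genes had 16 of 36 lower in liver and 0 higher, and for 1 of them the heart contrast was lower. Fatty acid oxidation differed more, with 10 of 42 lower and 4 higher in liver, and the heart contrast lower for 20 members and higher for 2. Decr1, for example, had a log2 fold change of -1.0 in heart and -0.12 in liver (adjusted p of the difference 0.00014). Muscle genes also differed, the heart contrast being lower for 17 sarcomere genes and higher for 1. In the livers these genes are traces, and the sarcomere list summed to 128 to 278 in NZB:NZB livers and 44.2 to 48.0 in BL/6J:NZB livers. Myom2, a protein of the M-band, had 14.6 ± 3.04 in NZB:NZB livers and 0.0286 ± 0.05 in BL/6J:NZB livers, beside 721 ± 61.4 in NZB:NZB hearts and 883 ± 35.6 in BL/6J:NZB hearts. The part of these liver traces in the differences between tissues was not tested.

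**Figure D5:**
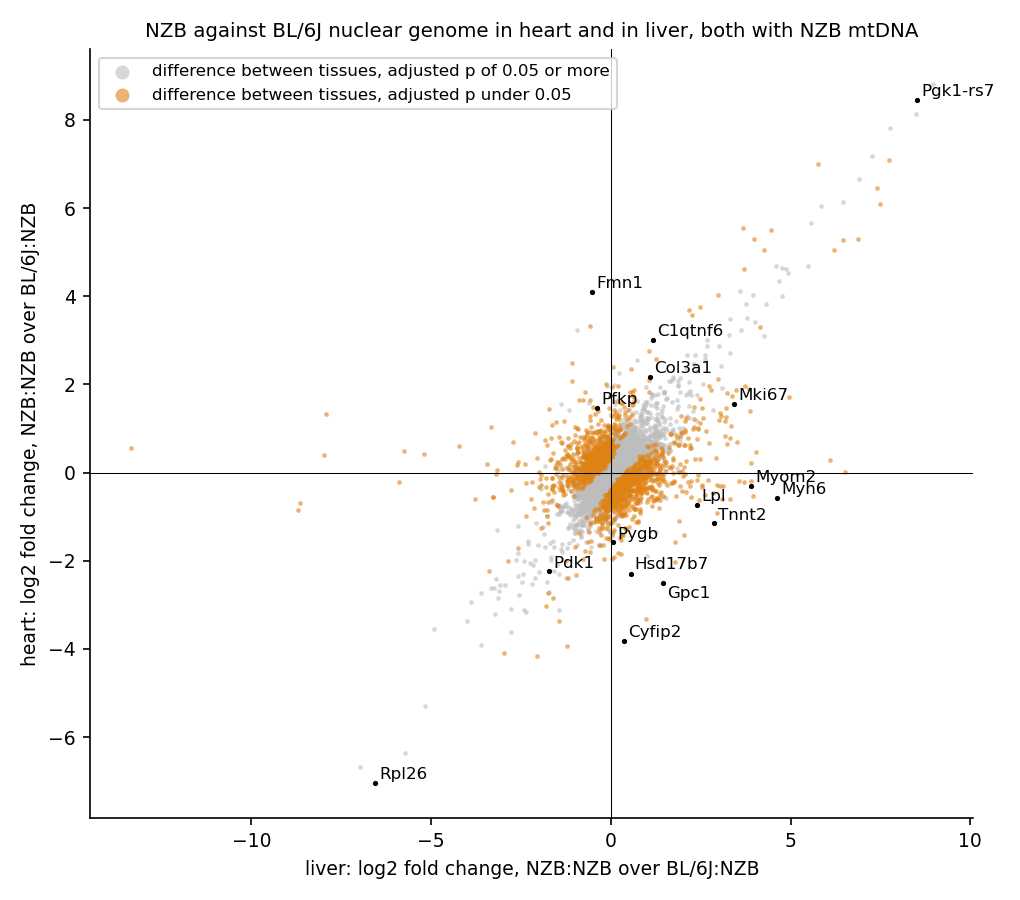
Log2 fold changes, NZB:NZB over BL/6J:NZB, in liver (horizontal axis) and heart (vertical axis) for genes tested in both. Orange points differed between the tissues at an adjusted p under 0.05; Tnnt2 lies at -1.15 in heart and 2.87 in liver, and Pgk1-rs7 lies near 8.5 in both, at 8.45 in heart and 8.51 in liver.

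The contrast could also be set beside NZB:C57 against BL/6J:C57 hearts, which carry C57 mtDNA and share no library with it. The NZB:C57 hearts, which stood apart, had sums of all values of 1048698 to 1068799, and every difference below rests on them, since the contrast on C57 mtDNA cannot be had without them. Among the leading genes of the comparison, Fmn1 had 41.9 ± 4.55 in NZB:C57 hearts and 1.29 ± 0.31 in BL/6J:C57 hearts, Cyfip2 had 13.6 ± 0.57 in NZB:C57 hearts and 230 ± 13.9 in BL/6J:C57 hearts, and Col3a1 had 929 ± 79.1 in NZB:C57 hearts and 208 ± 3.77 in BL/6J:C57 hearts. The difference between the contrasts did not pass the test for Fmn1 (-0.13 on the log2 scale, adjusted p = 0.81), Cyfip2 (0.17, adjusted p = 0.58) or Col3a1 (0.02, adjusted p = 0.94). It passed for other leading genes, among them Ogdhl with 6.30 ± 1.37 in NZB:C57 hearts and 147 ± 14.7 in BL/6J:C57 hearts (difference -0.67, adjusted p = 0.020), Pttg1 (-0.78, adjusted p = 0.015) and Hamp2 (-1.57, adjusted p = 0.00051), all with the same direction on both mtDNA types. Over all genes 1550 of 13803 (11.2%) passed, 196 with a higher and 1354 with a lower contrast on NZB mtDNA. With library totals, which moved the median difference of all genes to 0.61, there were 8442 with a higher and 685 with a lower one. In the main fit cardiac troponin T had a lower contrast on NZB mtDNA, since Tnnt2 had 16262 ± 81.2 in NZB:C57 hearts and 4181 ± 258 in BL/6J:C57 hearts, a direction opposite to that on NZB mtDNA (difference -3.11, adjusted p = 6.0e-11). By list, on C57 mtDNA 15 of 16 cardiomyocyte markers and 20 of 24 sarcomere genes were higher and 0 lower, with medians of 2.4 and 1.35. Matrix genes had 40 of 42 higher and 1 lower, and complex I genes 21 of 36 lower and 0 higher. In that contrast 22.1% of all genes tested were higher and 13.1% lower.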

How the data were processed

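Left ventricle RNA of NZB:NZB and BL/6J:NZB mice was analysed in 6 of 24 libraries; the table holds 15323 genes. Tools listed in the submitters' processing notes are Bowtie2 2.0.6, RSEM 1.2.3, cutadapt 1.2.1 and edgeR, whose version is not given there; the build listed is GRCm38. Per the file headers, the authors deposited a normalised signal per gene and library, and no source used here gives the method behind it. In every library 100% of values were whole multiples of 1 constant within 0.01, so whole reads were recovered; GRCm38 is a C57BL/6J genome, so NZB reads were counted on another strain, and strand use is not given, so antisense partners cannot be separated.

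From these values limma 3.58.1 (trend; R 4.3.3) was fitted to log2(value + 1) over the 12 heart libraries, keeping genes that reached a value of 1 in 3 or more of them. A fold change on this scale understates that of low genes. Differences between tissues used the 24 libraries, differences between mtDNA types the heart fit, both as interactions. Benjamini-Hochberg adjustment ran over every tested gene, and calls needed an adjusted p under 0.05. Replicates are pools of different animals, so p-values measure the spread between pools, and 3 pools against 3 cannot give an exact permutation p below 0.1. Count tests with edgeR 4.0.16 and DESeq2 1.42.0 on the recovered reads, other scalings, pseudocounts, filters and fits, and each library left out were alternatives. Symbols and positions came from GENCODE vM21 (15116 genes, 98.65%). Fits were tested on simulated data.

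The comparison, the members of the 57 gene lists (1497 names, 1397 in the table) and the tests were chosen with earlier results of these data known. The rule for named genes took 10 genes at either end of the fold changes (called, no overlap, mean of at least 5, no predicted genes), up to 3 called genes per list in order of p, 5 per interaction, up to 3 per stretch of neighbours, and the strain variant genes. Other genes, further list members and those sharing under 10% of their words of 31 bases, were chosen after their values were seen. Intervals and floors (3 reads over a group) cover counting error only. mtDNA-encoded genes were not analysed here. Some genes under the naming rule are not reported here.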

Additional observations from a re-analysis of the deposited data

Results flagged for a closer look

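The contrast between NZB:NZB and BL/6J:NZB differed between heart and liver, by an interaction test (limma), in 2323 genes. The 5 with the smallest p had lower contrasts in heart, in log2 units: Cyp2c39 by -7.85, Akr1c18 by -5.77, Ogdhl by -5.02, Gpc1 by -3.94 and Myom2 by -4.20. Cyp2c39 had 0.109 ± 0.09 in NZB:NZB hearts and 0.0478 ± 0.08 in BL/6J:NZB hearts, beside 372 ± 11.2 in NZB:NZB livers and 0.548 ± 0.34 in BL/6J:NZB livers, so its difference lies in the liver. The same holds for Akr1c18, with 61.6 ± 10.4 in NZB:NZB livers and 0.110 ± 0.10 in BL/6J:NZB livers. For Ogdhl it lies in the heart, since both liver groups averaged under 0.04 (0.0328 in NZB:NZB and 0.0286 in BL/6J:NZB).

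The contrast also differed between hearts with NZB and with C57 mtDNA in 1550 genes. The 5 with the smallest p are muscle genes whose contrast was lower on NZB mtDNA, in log2 units: Trim63 by -3.73, Asb10 by -3.46, Trim54 by -3.74, Ndrg4 by -2.89 and Lmod3 by -3.11. Trim63, a muscle ubiquitin ligase, had 93.4 ± 5.82 in NZB:NZB hearts and 93.0 ± 1.85 in BL/6J:NZB hearts, beside 1221 ± 80.2 in NZB:C57 hearts and 90.9 ± 1.78 in BL/6J:C57 hearts. These differences rest on the NZB:C57 hearts, which stood apart from the other hearts, and the part of that was not tested.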

How the results depend on the processing

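The count of called genes was 3044 to 3998 when 1 of the 6 libraries was left out, and every other setting gave a count within 1.5 times of 4012. The difference between tissues gave 1880 to 2165 genes in such leave-outs and 1598 with edgeR. The difference between mtDNA types gave 1283 to 1687, and 9127 with library totals, which moved the median difference of all genes to 0.61. Replicate numbers did not pair the pools (correlations of deviations 0.01, 0.06 and -0.03 for equal numbers), and with a replicate block the counts were 3741, 2281 and 1416. Of 4204 values of 204 results under alternatives, 4108 kept direction and side of the threshold, 84 lost the call, 5 gained it and 7 turned. Trim63, near 0 in the heart contrast, turned to -0.022 with TMM, -0.020 with edgeR and -0.018 with DESeq2, and was between -0.043 and 0.044 in leave-outs. Vdac3-ps1 turned to -0.33 when copies were summed. Nnt was called with TMM (adjusted p = 0.034), edgeR (0.034) and DESeq2 (0.011). Myl2 and Tnni3 were not called in the fit over all 24 libraries (adjusted p = 0.28 for both), and the liver differences of Akr1c18 and Ogdhl were not called with edgeR (adjusted p = 1 and 0.14). The causes were not tested. Of 2394 list counts, 258 moved by over 1.5 times. Depth limits genes near the floor, 0.124 in NZB:NZB and 0.111 in BL/6J:NZB hearts.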

Other observations

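Gm13340, a nuclear gene that shares words with mt-Co1, varied with the mtDNA among BL/6J hearts. It had 101, 110 and 65.9 in BL/6J:NZB hearts and 1.09, 1.43 and 1.48 in BL/6J:C57 hearts, with no overlap. NZB:NZB hearts had 39.2, 36.5 and 33.3, and NZB:C57 hearts had 28.4, 22.04 and 19.4. These values were looked at after the pattern was seen, and no test is given.

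Among the 11 stretches of called neighbours, the one at chr8:19682449-22071627 holds predicted genes, 7 higher and 1 lower. Gm6483, which shares 64.5% of its words, had 166, 168 and 177 in NZB:NZB hearts and 13.9, 15.4 and 14.04 in BL/6J:NZB hearts. In the block of Ly6 genes at chr15:74955051-75629827, 2 genes were higher and 4 lower.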
